A study of Mus musculus with 2 samples.

Results

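Interferon-induced and antigen presentation genes were examined in a table of nascent transcription in mouse myoblasts. The group was chosen by symbol alone, as every RefSeq entry whose symbol begins with Ifi and a digit or t, Gbp and a digit, Oas and a digit or l, Stat and a digit, Ifnar, Ifngr or H2-, together with Irf1 to Irf9, B2m, Tap1, Tap2, Mx1 and Mx2. It holds 133 of the 24165 entries of the table, from 112 gene symbols. Activity was measured by global run-on sequencing (GRO-seq), in which engaged polymerases extend their transcripts in isolated nuclei with bromouridine so that nascent RNA can be captured. The samples were 2 replicate libraries of the established mouse myoblast line C2C12, with no treatment, genetic change or added interferon named in the labels, grown in medium with serum to 80% confluency, with 4 plates combined for each isolation of nuclei. C2C12 is a single line, and the study calls the libraries biological replicates. The authors pooled both libraries and deposited 1 value per entry in RPKmM, an RPKM of sense reads over the mappable bases of the gene body, or the word Inactive where the density did not pass that of gene deserts. Because of this pooling there is no value per library, no error and no test across replicates below, and the number of reads behind a single value is not given in the table. Counts and medians of the group are therefore given as a description beside the same quantity over the whole table, and neighbours in any order of activity cannot be told apart.

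Interferons are cytokines that warn cells of infection. They bind paired receptor chains (Ifnar1 with Ifnar2, or Ifngr1 with Ifngr2), the receptors activate Stat transcription factors, and these act with Irf factors at short promoter motifs to switch on antiviral effectors such as the Ifit, Oas, Mx and Gbp genes. The same signals raise the genes of antigen presentation. Major histocompatibility complex (MHC) class I chains are made by most nucleated cells and display peptides together with B2m, after the Tap1 and Tap2 transporter has brought the peptides in, whereas class II genes are largely restricted to professional antigen-presenting cells.

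The markers of the labelled cell type were transcribed. All 10 entries of the myoblast list were active, with Vim at 146.13, Des at 72.45, Chrna1 at 15.62, Myf5 at 5.03 and Myod1 at 2.39. Of 14 entries of immune markers, 3 were active and these reached 0.02 at most, while Ptprc, Itgam, Csf1r, Adgre1, Itgax and Ms4a1 were inactive. The C2C12 line comes from a mouse strain other than that of the reference genome, and MHC genes differ strongly between strains. How far this lowers the reads counted at the H2 genes was not tested.

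Of the 133 entries, 72 (54.1%) were marked active, against 70.2% of all entries. By symbol, 57 of 112 were active, against 68.7% in the table. The direction of this difference depends on which families are counted. Without the H2, Gbp, Oas and Ifi200 genes 43 entries (75.4%) were active, and 25 of these were receptors, Stat and Irf factors. Among the families left out, the Ifi200 genes lay above the table, with 4 of 5 entries active (80%). Active entries of the group had a median of 0.53 RPKmM (quartiles 0.03 and 0.897), and all active entries had a median of 0.87. The median of the group was 0.05 without the receptors, Stat and Irf factors, and 0.82 over values of at least 0.05. The 0.87 is not the match for this 0.82. With the same threshold on both sides, the ratio of the group median to the table median was 0.745, against 0.609 without it. Values of 1 RPKmM or more were found in 15 entries (11.3%), where the whole table has 32.3%. The group had few intermediate values. It placed 31 entries (23.3%) among active values below 0.1, 3 (2.26%) from 0.1 to below 0.5 and 23 (17.3%) from 0.5 to below 1, whereas the table holds 13%, 12.6% and 12.3% in these ranges. The only entries from 0.1 to below 0.5 were those of Ifitm1, H2-Q4 and H2-M3.

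**Figure D1:**
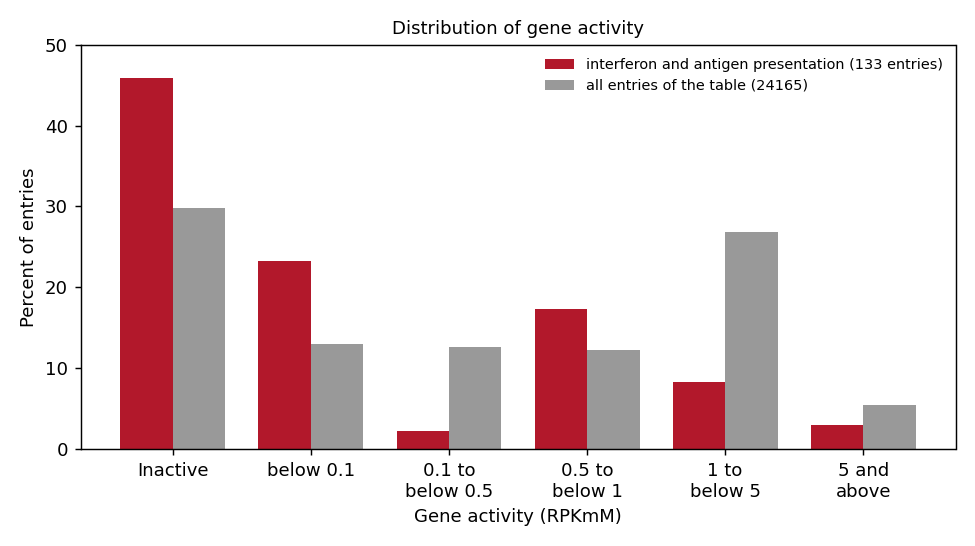
Percent of entries (y axis) in each range of gene activity in RPKmM (x axis), for the 133 interferon and antigen presentation entries (red) and all 24165 entries (grey). The red bars are high for inactive entries and for values below 0.1, low from 0.1 to below 0.5 (2.26% against 12.6%), and higher again from 0.5 to below 1.

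Promoter sequences are shown for 7 genes of differing activity, with no class I or class II chain among them. B2m and Irf1 were well transcribed, Ifi202b was the most active of the Ifi, Ifit, Gbp, Oas and Mx genes, Ifit2 and Ifit1 are neighbours with different activity, and Gbp2 and Oas1a were close to silent or inactive. Each sequence runs from 250 bases before a RefSeq start to 50 bases after it, in the direction of transcription, on assembly GRCm38.p6. Capitals mark matches to the core of the interferon-stimulated response element (ISRE, bound by a complex with Stat2 and Irf9 or by Irf factors), searched as GAAA and GAAA with any 2 bases between them, and to the gamma-activated site (GAS, bound by Stat dimers), searched as TTCNNNGAA, both on either strand. Every window shown holds a match, but only 23 (ISRE) and 14 (GAS) of the 98 promoters of the group did. Irf1 and Ifit2 each have another window, without a match, that is not shown.
B2m, chr2:122147437-122147736, plus strand, 5.85 RPKmM, 1 ISRE: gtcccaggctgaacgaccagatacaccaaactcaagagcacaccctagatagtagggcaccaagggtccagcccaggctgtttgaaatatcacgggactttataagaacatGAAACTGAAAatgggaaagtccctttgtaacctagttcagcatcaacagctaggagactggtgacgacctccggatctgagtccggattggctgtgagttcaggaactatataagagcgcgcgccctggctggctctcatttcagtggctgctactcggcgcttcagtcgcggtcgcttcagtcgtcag
Irf1, chr11:53769764-53770063, plus strand, 1.08 RPKmM, 1 GAS: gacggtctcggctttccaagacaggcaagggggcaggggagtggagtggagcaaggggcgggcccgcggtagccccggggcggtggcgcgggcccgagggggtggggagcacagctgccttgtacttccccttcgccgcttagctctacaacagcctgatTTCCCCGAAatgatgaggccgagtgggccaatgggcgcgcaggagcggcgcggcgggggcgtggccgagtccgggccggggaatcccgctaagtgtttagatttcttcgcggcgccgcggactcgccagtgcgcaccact
Ifi202b, chr1:173982795-173983094, minus strand, 2.2 RPKmM, 1 GAS: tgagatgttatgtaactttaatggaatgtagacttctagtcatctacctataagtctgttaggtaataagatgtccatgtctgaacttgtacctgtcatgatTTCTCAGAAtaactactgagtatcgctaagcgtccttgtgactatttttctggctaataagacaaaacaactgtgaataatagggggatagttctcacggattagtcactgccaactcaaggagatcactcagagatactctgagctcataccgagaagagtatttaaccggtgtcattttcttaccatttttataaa
Ifit2, chr19:34550444-34550743, plus strand, 0.59 RPKmM, 1 GAS: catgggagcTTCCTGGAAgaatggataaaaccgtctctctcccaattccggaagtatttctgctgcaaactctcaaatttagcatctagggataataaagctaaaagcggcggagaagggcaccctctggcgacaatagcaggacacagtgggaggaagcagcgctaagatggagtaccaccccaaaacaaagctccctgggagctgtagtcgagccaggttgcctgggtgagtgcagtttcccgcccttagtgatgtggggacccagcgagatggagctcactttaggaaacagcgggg
Ifit1, chr19:34640639-34640938, plus strand, 0.02 RPKmM, 2 ISRE: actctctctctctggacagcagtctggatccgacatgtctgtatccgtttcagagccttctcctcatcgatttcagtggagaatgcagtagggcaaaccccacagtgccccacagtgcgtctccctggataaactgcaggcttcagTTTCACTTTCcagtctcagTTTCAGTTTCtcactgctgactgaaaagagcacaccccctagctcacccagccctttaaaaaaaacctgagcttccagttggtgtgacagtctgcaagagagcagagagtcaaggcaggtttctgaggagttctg
Gbp2, chr3:142620413-142620712, plus strand, 0.02 RPKmM, 1 ISRE: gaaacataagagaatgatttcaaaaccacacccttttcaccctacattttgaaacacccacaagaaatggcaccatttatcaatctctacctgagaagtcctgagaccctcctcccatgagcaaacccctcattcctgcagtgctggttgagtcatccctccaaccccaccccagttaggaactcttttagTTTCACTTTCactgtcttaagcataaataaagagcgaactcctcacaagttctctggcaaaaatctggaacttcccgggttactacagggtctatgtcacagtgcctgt
Oas1a, chr5:120907476-120907775, minus strand, Inactive, 2 ISRE that overlap each other and 1 GAS: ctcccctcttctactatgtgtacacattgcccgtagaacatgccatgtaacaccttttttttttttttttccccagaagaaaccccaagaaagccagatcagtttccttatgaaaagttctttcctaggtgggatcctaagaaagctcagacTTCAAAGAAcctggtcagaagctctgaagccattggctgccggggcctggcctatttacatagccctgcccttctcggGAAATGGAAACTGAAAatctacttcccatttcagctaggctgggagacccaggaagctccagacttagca

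Each receptor chain was transcribed, with all 5 entries active, where 70.2% of all entries of the table were. Ifnar1, a chain of the receptor for type I interferons, had 1.8 RPKmM, and its partner Ifnar2 had 0.66 and 0.86 for its entries. The chains of the receptor for interferon gamma were listed at 1.11 (Ifngr1) and 0.92 (Ifngr2). All 5 receptor entries thus lay within the middle range of active genes. The kinases that sit on these receptors were active as well, as Jak1 was listed at 3.46, Tyk2 at 1.6 and Jak2 at 1.28.

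Among the 11 Stat entries, 9 were active (81.8%, against 70.2% of the table). Stat2, which joins Irf9 in the factor that binds the ISRE, had 1.5. Stat3, a mediator of interleukin 6 signalling, was at 1.22. The growth hormone responsive factors were lower, with Stat5b at 0.87 and 0.89 and Stat5a at 0.51 and 0.52. The factors best known from lymphocytes stood apart, as Stat6 had 0.02 and both entries of Stat4 were inactive.

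The Irf factors divided in the same manner, with 11 of 15 entries active (73.3%, against 70.2% of the table). Irf2, a repressor that competes with Irf1, had 1.43, and the entries of Irf1 had 0.99, 1.02 and 1.08. Irf3, which is activated by viral sensors and induces interferon beta, was listed at 0.94 and Irf9 at 0.84 and 0.88. No entry of these 4 factors was below 0.84. By contrast Irf5 had 0.03, 0.04 and 0.05. The lymphoid and myeloid factors Irf4 and Irf8, and Irf7, which amplifies the interferon response and is itself interferon-induced, were inactive. Together the receptors, Stat and Irf factors had 25 of 31 entries active (80.6%, against 70.2% of the table), with a median of 0.87, equal to that of all active entries.

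**Figure D2:**
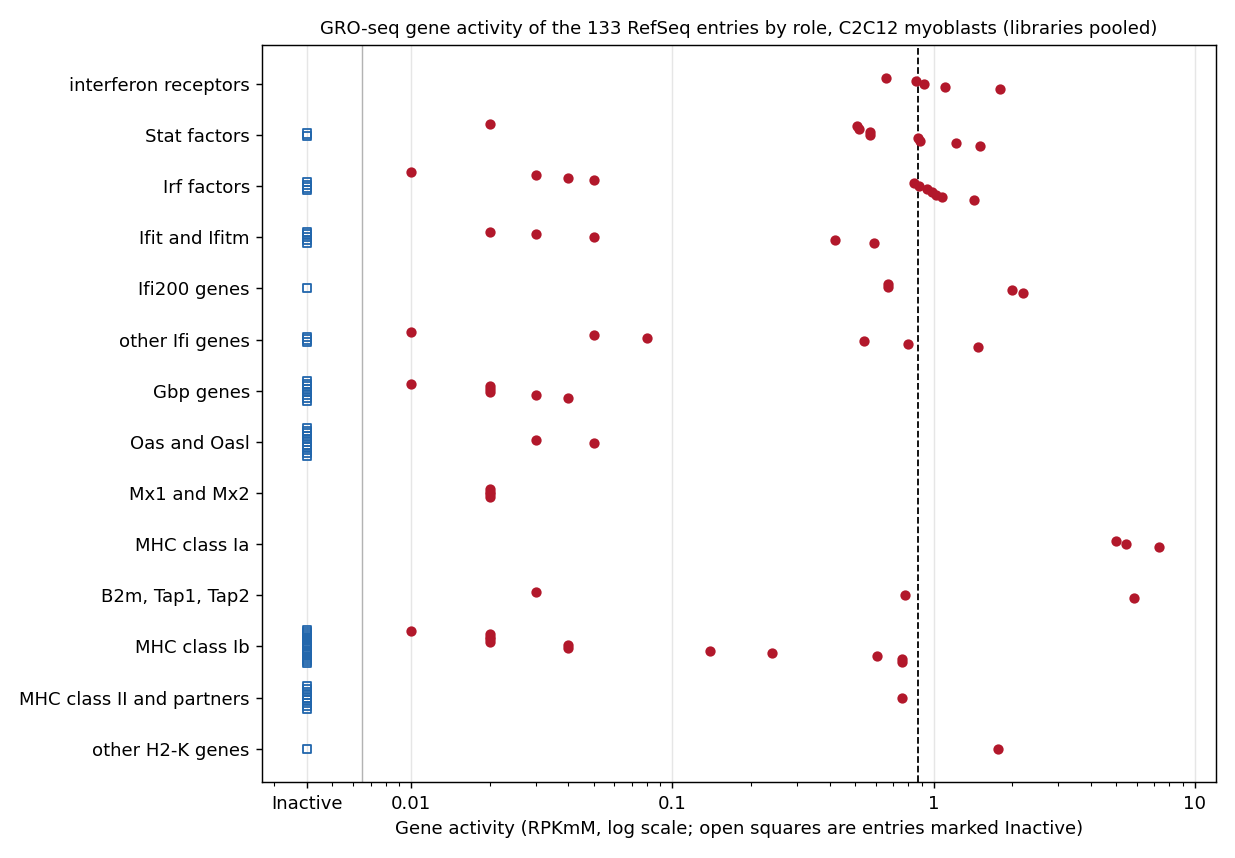
Gene activity in RPKmM (x axis, log scale) of each of the 133 entries, by role (y axis), as deposited from the pooled libraries. Filled red points are active entries, open blue squares at the left are entries marked Inactive (vertical offsets only separate points), and the dashed line is the median of all active entries, 0.87. Class Ia entries lie above 5, the receptors near the dashed line, and the Gbp, Oas and Mx entries at 0.05 or below.

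The interferon-induced effectors were mostly inactive or close to the lowest listed values. The Ifi, Ifit, Ifitm, Gbp, Oas and Mx genes had 27 of 55 entries active (49.1%, against 70.2% of the table). Of these 27, 18 were below 0.1 (66.7%, against 18.5% of all active entries). The median of the 27 was 0.04, where all active entries had 0.87. The Gbp genes, which encode guanylate-binding GTPases acting on intracellular pathogens, had 6 of 14 entries active at 0.01 to 0.04. The Oas genes encode oligoadenylate synthetases that sense double-stranded RNA. All 11 entries of the 10 Oas genes were inactive, and only the related Oasl1 (0.03) and Oasl2 (0.05) were active. Mx1 and Mx2, dynamin-like GTPases against viruses, had 0.02 in each of their 4 entries.

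Exceptions to this low level were found in the Ifit and Ifi genes. Ifit2, which binds viral RNA, had 0.59 RPKmM, while its neighbours in a cluster of 6 genes had 0.03 (Ifit3), 0.02 (Ifit1) or were inactive (Ifit1bl1, Ifit1bl2 and Ifit3b). The ratio of Ifit2 to Ifit3 was 19.7, and rounding of the listed values alone allows 16.7 to 23.8. In mm9 the GENCODE model of Ifit2 spans chr19:34625184-34650909 on the plus strand. Ifit3 shares 57.3% of the 32-base windows of its gene body with Ifit3b. The part of shared sequence in their values was not tested. Ifitm1, which restricts virus entry, was at 0.42, whereas Ifitm10 had 0.05 and Ifitm7 was inactive.

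Among the Ifi, Ifit, Gbp, Oas and Mx genes, Ifi202b had the highest value, at 2.2 RPKmM, above 77.5% of all active entries. Its product p202 binds DNA and antagonises the inflammasome sensor Aim2. The single entry NM_008327 lies on the minus strand of chromosome 1, at chr1:175892700-175912975 in mm9. Another gene of the same cluster, Ifi204, had 1.99, and its product p204 is known as a DNA-binding factor in muscle differentiation. Ifi203 had 0.67 in both entries, Mnda and Mndal of the same family, which the symbol rule does not take in, had 0.49 and 0.05, and Ifi205 was inactive. The 4 Ifi200 genes therefore ranged from inactive to above the 75th percentile of active entries within 284.463 kb. Only 69.2% of the 32-base windows in the Ifi202b gene body occur once in the mm9 genome, and 40.9% to 55.7% in those of the other 3. The unique share at the length of the reads was not measured.

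**Figure D3:**
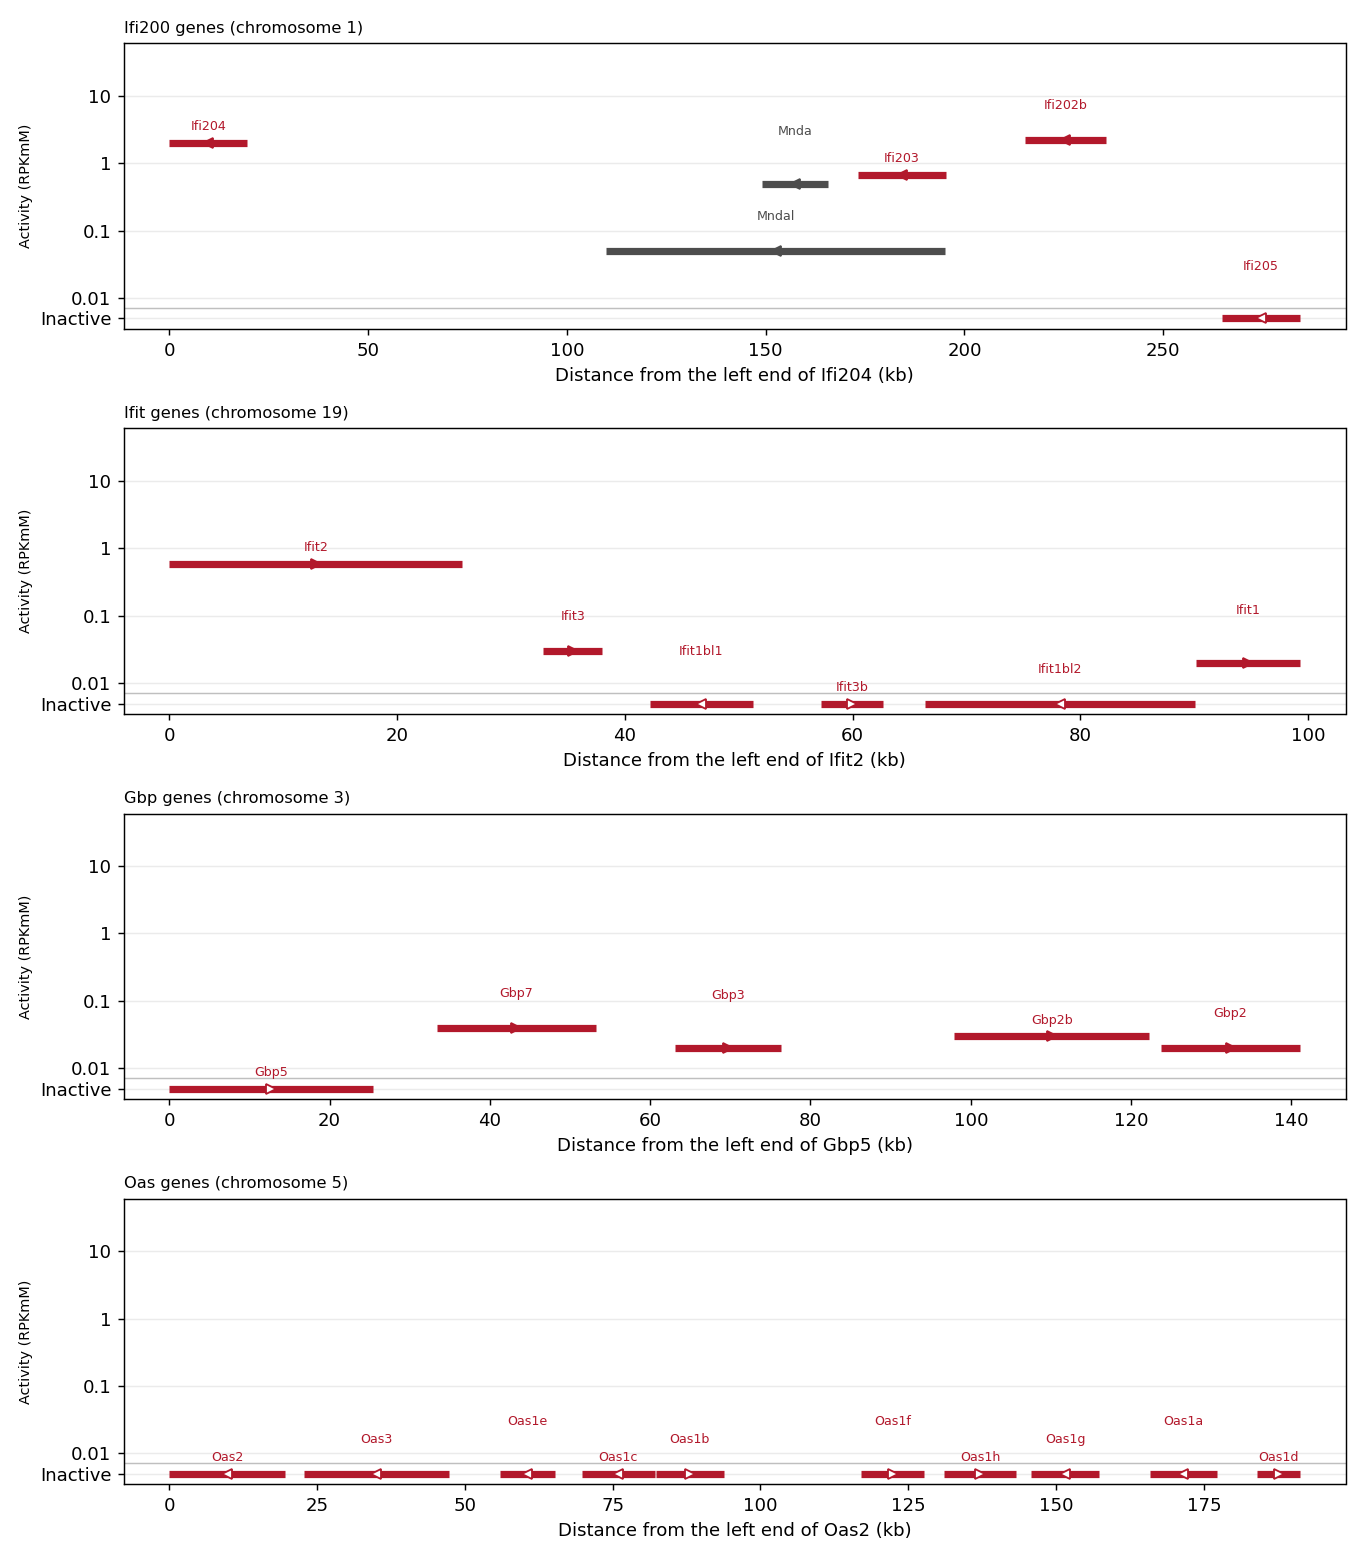
Gene activity in RPKmM (y axis, log scale, with Inactive below the grey line) against distance in kb from the left end of the first gene (x axis) for clusters of Ifi200, Ifit, Gbp and Oas genes in mm9. Each bar is a gene of the GENCODE annotation at the activity of its highest RefSeq entry, arrows give the strand, red marks members and grey other genes of the table, and open arrows mark inactive genes. Ifi204 and Ifi202b stand near 2, Ifit2 is the only Ifit gene above 0.03, and all 10 Oas genes of the cluster are inactive.

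The remaining Ifi genes were mixed. Ifi30, a lysosomal thiol reductase that prepares antigens, had 1.48, Ifi27 had 0.8 and Ifi35 had 0.54. Ifi47, a GTPase of the immunity-related family, had 0.05 and 0.08. Ifi27l2a was at 0.01, and Ifi27l2b, Ifi44 and Ifi44l were inactive. Ifi30 begins 1.02 kb downstream of Pik3r2, which is on the same strand and had 1.13. The part of transcription continuing from an upstream gene was not tested here. Of 55 active and placed member symbols, 3 lay within 10 kb of an upstream same-strand gene of the table with at least 1 RPKmM, and of 53 inactive symbols, 0 did. The other 2 were H2-Ke6, 0.207 kb from Slc39a7 (8.45), and H2-D1, 9.02 kb from Ddx39b (11.6). The same shares over all placed symbols of the table were not computed. Further members lay close to an active upstream gene below 1 RPKmM. Examples are Irf9 beside Rnf31 (0.72, gap -0.122 kb, an overlap), Ifi35 beside Rpl27 (0.83, 2.88 kb) and the inactive H2-DMb2 beside H2-DMa (0.76, 4.21 kb).

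The classical class I genes and B2m, the invariant partner of their chains, had the highest values of the group. H2-L was listed at 7.28, B2m at 5.85, H2-D1 at 5.45 and H2-K1 at 5.01. These are the only 4 entries (3.01%) at 5 or above, where the table has 5.41%, and each lay above 92.3% or more of all active entries. H2-D1 and H2-L are closely related chains. H2-L was not placed in the mm9 annotation used here, so whether its entry overlaps that of H2-D1 is not known. The authors counted unique alignments only, so the same reads could count in both entries only where these overlap. The 7.28 may thus not be separate from the value of H2-D1. In H2-K1 and H2-D1, 61.3% and 64.6% of windows occur once in the genome, and in B2m 99.0%. How far shared sequence moves the class Ia values was not tested.

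The chains of the peptide transporter differed. Tap2 had 0.78 RPKmM and Tap1 had 0.03, although both chains are needed to move peptides into the endoplasmic reticulum. Their ratio was 26, with 22.1 to 31.4 allowed by rounding. Both genes consist mostly of unique sequence, with 95.3% of windows unique in Tap1 and a similar share in Tap2. The immunoproteasome genes beside Tap1, Psmb8 and Psmb9, were inactive. Psmb10, the third inducible subunit, lies elsewhere and had 7.05, the loading factor Tapbp had 1.7 and the peptide-trimming enzyme Erap1 had 0.64. General chaperones of the endoplasmic reticulum that also serve class I assembly were far higher, with Calr at 311.5, Pdia3 at 28.56 and Canx at 26.65.

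**Figure D4:**
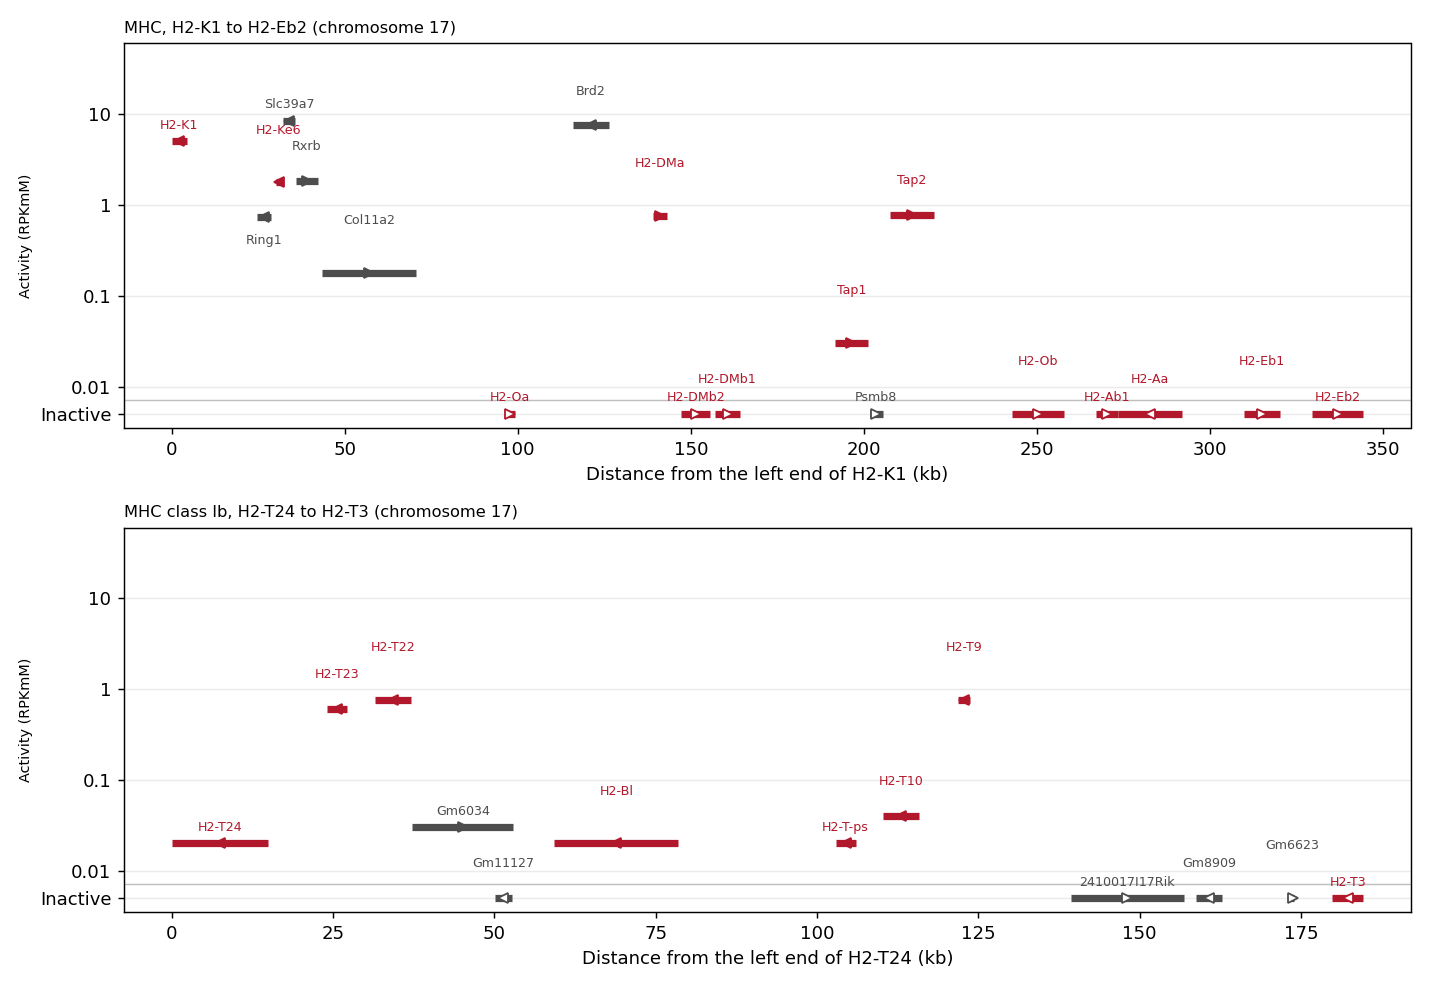
Gene activity in RPKmM (y axis, log scale, with Inactive below the grey line) against distance in kb (x axis) for 2 stretches of the MHC on chromosome 17 of mm9. Bars are GENCODE genes at the activity of their highest RefSeq entry, arrows give the strand, red marks members and grey other genes of the table, and open arrows mark inactive genes. H2-K1 and Brd2 stand high, H2-DMa (0.76) and Tap2 (0.78) are active among inactive class II genes (Psmb9, listed more than once in the annotation, is not drawn), and in the lower panel H2-T23, H2-T22 and H2-T9 lie above their neighbours.

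The class II genes were silent apart from a single gene. H2-Aa, H2-Ab1, H2-Eb1, H2-Eb2, H2-Ea-ps, H2-Oa, H2-Ob, H2-DMb1 and H2-DMb2 were inactive, which makes 9 of 10 entries, where 29.8% of all entries were inactive. H2-DMa, which encodes a chain of the factor that exchanges class II peptides, had 0.76, while the partner chain genes next to it, H2-DMb2 and H2-DMb1, were inactive. Of the 8 class II symbols with a promoter sequence, H2-DMa was also the only one with a CpG-rich promoter by the definition below. Ciita, the master activator of class II transcription, was inactive in all 3 entries. The class II chaperone gene Cd74 had 0.02 and the protease gene Ctss was inactive.

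Class Ib genes, relatives of class I with restricted or special functions, had 12 of 29 entries active (41.4%, against 70.2% of the table) and 0 at 1 or above, where the table has 32.3%. H2-T22 and H2-T9 were both listed at 0.76 and H2-T23, whose product is a ligand of natural killer cell receptors, at 0.61. H2-T10 had 0.04 in both entries although it shares 45.7% of its windows with H2-T22, and their ratio was 19 (16.8 to 21.9 allowed by rounding). H2-T9 has 36.6% unique windows in the GENCODE model used, which at 1947 bp is shorter than the 2 kb the authors required. The RefSeq model they counted therefore differs, and this unique share may not apply to it. How far shared sequence moves the value of H2-T9 was not tested. Among the H2-Q genes H2-Q4 had 0.24, H2-Q2 had 0.02 and the other 6 were inactive, with 21.5% unique windows in H2-Q7 and 23.7% in H2-Q8. H2-M3, which presents formylated bacterial peptides, had 0.14, H2-M5 had 0.01, and the remaining 10 H2-M entries, among them all 6 of H2-M10 genes, were inactive. H2-Ke6, which bears an H2 symbol but encodes a steroid dehydrogenase, had 1.77, and the pseudogene H2-K2 was inactive.

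For other genes of the pathway, a list of 66 symbols was used, of which 60 had entries. Of their 69 entries 61 were active (88.4%, against 70.2% of the table), with a median of 0.4, where all active entries had 0.87. All 11 sensors of viral nucleic acid and their adaptors were active, from 0.11 for Ifih1 to 1.56 for Tbk1, and Mavs had 1.2. The induced effectors of this list were mostly marked active but at low values, with 27 of 28 entries active (96.4%) at a median of 0.13. Of these 27, 10 were below 0.1 (37.0%, against 18.5% of all active entries). Cmpk2 and Igtp were at 0.01, and Iigp1 was inactive. Others were higher, such as the kinase gene Eif2ak2 (2.47) and the RNA-editing enzyme gene Adar (1.09 and 1.57). Nlrc5, the activator of class I genes, had 0.15. The ligand gene Ifng was inactive, and the remaining interferon genes of the list were not analysed here.

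The promoters were then compared, for the 82 of 112 symbols with a sequence in the RefSeq table (98 promoters). An ISRE match was found in 23 of these (23.5%), against 3.44% of all 32851 promoters, and a GAS match in 14 (14.3%), against 8.30%. No ISRE and GAS match overlapped in a promoter of the group. Among the induced families 17 of 37 promoters (45.9%) held an ISRE match, with 5 of 6 for Gbp genes, 4 of 8 for Oas and Oasl genes together (Oas1a, Oas1c, Oas1g and Oas3), 6 of 14 for Ifit and Ifitm genes, 2 of 4 for Ifi200 genes and 0 of 5 for the other Ifi genes. By activity, the match was found in 12 of 54 promoters of active symbols (22.2%) and 11 of 44 of inactive symbols (25%). Over all symbols of the table these shares were 2.90% and 3.79%. The windows of Ifit1 (active) and of 1 start of Ifit1bl2 (inactive) overlap on opposite strands, so the same 2 ISRE matches count in both, and for both genes in the totals above. Ifit1 with 2 ISRE matches, at positions -104 and -85 from its start, had 0.02, and Ifit2 without a match to these letters in either of its windows had 0.59. A match is a run of letters and not a bound site.

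Promoter composition was recorded as well. A promoter was called CpG-rich where G and C exceeded 50% and the observed to expected ratio of CpG exceeded 0.6. Such a promoter was present for 16 of 82 member symbols (19.5%), against 8131 of 15199 symbols of the table with a sequence (53.5%). Active were 14 of these 16 symbols (87.5%) and 29 of the other 66 (43.9%). Over the whole table, the corresponding shares were 89.5% and 45.8%. Within each promoter class the share of the group thus lay 2 percentage points or less below that of the table. The 16 include Ifnar1, Ifnar2, Ifngr2, Irf1, Irf2, Irf3, Stat2, B2m and H2-D1. They also include Irf5 and Ifitm10, both at 0.05 at most, and the inactive Irf8 and H2-Q10. No matched promoter of a Gbp, Oas or Ifi200 gene was CpG-rich.

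**Figure D5:**
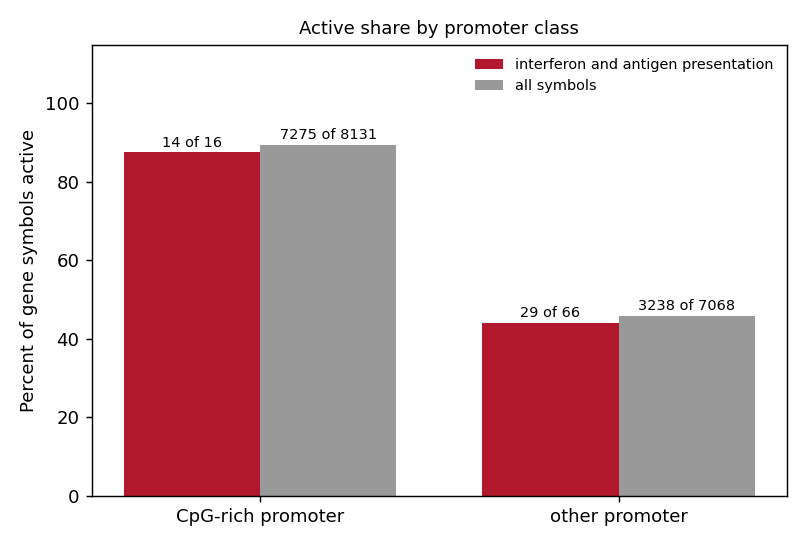
Percent of gene symbols with at least 1 active entry (y axis), for symbols with a CpG-rich promoter and for other symbols (x axis), among interferon and antigen presentation genes (red) and all symbols with a promoter sequence (grey). Numbers above the bars are active symbols of all symbols in the class. The shares of both sets are close in each class, 87.5% and 89.5% for CpG-rich promoters and 43.9% and 45.8% for the others.

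A short gene collects few reads, so gene length was set beside activity. The median length of the 108 symbols placed in mm9 was 10.9 kb, and it was 20.8 kb over the 18738 placed symbols of the table. Active members had a median of 14.9 kb and inactive members 9.08 kb, against 23.7 kb and 14.5 kb for active and inactive symbols of the table. Of members under 5 kb, 11 of 30 (36.7%) were active, against 56.2% of all symbols of that length. From 5 to 10 kb the shares were 57.1% and 62.9%. From 10 to 20 kb they were 50% and 71.2%, and from 20 to 40 kb they were 55.6% and 76.6%. Above 40 kb, 6 of 7 members were active, against 76.6% of all.

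Several RefSeq entries existed for 19 symbols. In no case were active and inactive entries of the same gene mixed, since 13 symbols had all entries active and 6 had all inactive. The entries were equal for 6 of the 13, and they differed by more than 1.5 times for Irf5 (1.67) and Ifi47 (1.6), both at 0.08 or below, where a step of rounding is a large share of the value.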

How the data were processed

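GRO-seq was done on 2 libraries of C2C12 myoblasts. The authors aligned 76 bp reads to mm9 with Bowtie2, used unique alignments with a mapping quality of 40 or more, and shortened reads that did not meet this in steps of 5 bp down to 21 bp for further attempts. Reads in rRNA and tRNA repeats were discarded and both libraries were pooled. They deposited 1 activity per RefSeq entry as RPKM over mappable bases (RPKmM, 2 decimals), counted on the gene body beginning 1 kb inside the gene. Entries not above the density of 65 gene deserts (Poisson, FDR 0.01) carry the word Inactive. The reading as RPKM rests on the header and the methods, because of these words, and the table gives no read counts.

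Members and lists were chosen with earlier results of these data known. Named were member symbols by role, and pathway genes by their list; some of these genes are counted but not reported here by name. Positions came from GENCODE vM1 on NCBIM37 (mm9), by name (100 symbols) or a single older name (8). The other 4, and any gene of the table whose name has more than 1 locus there, were not placed. Promoters came from the RefSeq table on GRCm38.p6. Unique windows are 32-base words of the gene body found once in mm9 on either strand. Alternatives were 1 entry per symbol, activity thresholds, geometric means, inactive entries at 0 and other member choices. A share was taken as moved when outside its 95% Clopper-Pearson interval, which covers counting error only, and a count, median or ratio when over 1.5 times away. No test was made. Python 3.11.15, numpy 2.4.6, pandas 2.3.3, scipy 1.17.1 and matplotlib 3.10.9 were used, and the scripts were tested on simulated data.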

Additional observations from a re-analysis of the deposited data

How the results depend on the processing

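No paired analysis was possible because the authors pooled both libraries into 1 value, and for the same reason no library could be left out. Of 42 alternative values for the number and share of active entries, the share at 1 or above, the median and its ratio to that of all active entries (0.609), 27 stayed within the set limits and 15 moved. Some of these could not do otherwise. No active value of the group was below 0.01, so a threshold of 0.01 left its counts, shares and median unchanged. A threshold of 0.05 cannot change the share at 1 or above, and leaving out members can only lower a count. The tally is therefore no measure of stability. Counting as active only values of at least 0.05 gave 46 active entries, a share of 34.6% and a median of 0.82. The ratio of this median to that of the table at the same threshold was 0.745. The 70.2% of the table follows the authors' call, so it is no match for this 34.6%. Without the receptors, Stat and Irf factors, 47 entries were active, the median was 0.05 and its ratio to that of all active entries 0.0575. Without the H2, Gbp, Oas and Ifi200 genes, 43 entries were active, a share of 75.4%, above the 70.2% of the table, so the direction of that comparison depends on these multigene families. Restricting the group to the 64 symbols with at least 80% unique windows, an alternative chosen after seeing the data, gave a share of 64.2%, still below the table. Geometric means were 0.229 (pseudocount 0.01) and 0.206 (0.001), with ratios of 0.378 and 0.368, and with inactive entries kept at 0 the median was 0.02 and the ratio 0.0645. Values near 0.01 are limited by rounding to 2 decimals.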

Other observations

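The H2-M genes lie across 1199 kb of chromosome 17 and share this stretch with 15 other placed genes of the table. Only 2 of the 12 H2-M symbols were active, while 8 of the 15 others were (53.3%), against 68.7% of all symbols of the table. The active others had a median of 1.36 RPKmM and ranged from 0.01 (Ubd) to 6.36, with 1700031A10Rik at 0.07 and Znrd1as at 0.26. The higher ones included Gabbr1 (6.36), a receptor subunit for the transmitter GABA, Ppp1r11 (4.14), Zfp57 (2.54) and Trim26 (1.57). Inactive were the ubiquitin ligase genes Trim10, Trim15, Trim31 and Trim40, as well as the myelin gene Mog. Between H2-K1 and H2-Eb2, 5 of 6 placed genes that are not members were active, with Slc39a7 at 8.45 and the bromodomain gene Brd2 at 7.51. The inactive gene of these 6 was Psmb8. Psmb9, also inactive, lies there too but has more than 1 record in the annotation and was not counted. From H2-T24 to H2-T3, 7 of 8 members were active and 1 of 5 other placed genes was. Of these 7, 4 had 0.02 to 0.04, near the active other gene Gm6034 at 0.03.

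On chromosome 16, Ifnar2, Ifnar1 and Ifngr2 lie within 192.387 kb together with Il10rb, a receptor chain for interleukin 10, at 0.61, and A930006K02Rik at 0.17. All 5 genes were active, where 68.7% of all symbols of the table were. The Mx genes on the same chromosome enclose the inactive Fam3b.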
